A study of Mus musculus with 6 samples.

Results

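The 10 genes described here mark the oligodendrocyte lineage from the dividing precursor to the cell that starts to make myelin: Pdgfra, Cspg4, Sox10, Olig1, Olig2, Gpr17, Enpp6, Myrf, Nkx2-2 and Lhfpl3. They were taken by symbol from the 50559 genes of the deposited tables, all 10 were found, and all 10 were among the 22360 genes with enough counts to be tested. RNA sequencing of auditory cortex from C57 mice compared 3 libraries labelled WNT3 overexpressing with 3 labelled WNT3 control, to find what excess of this secreted Wnt ligand does to cortical gene expression. The labels give no age, no vector or promoter for the overexpression and no treatment of the controls, and do not state whether the replicates came from different mice; the p-values therefore rest on the spread of these 6 libraries, which may be technical. The tissue label is auditory cortex, whereas the extraction protocol names striatum. Slc17a7, the glutamate transporter of cortical excitatory neurons, was at 584 to 637 TPM (deposited transcript abundance, scaled by length) in overexpression and 465 to 597 TPM in control. Drd2, a dopamine receptor of striatal neurons, was at 0.573 to 3.41 TPM in overexpression and 1.15 to 5.47 TPM in control. Total counts were 54642400 to 71803617 in overexpression and 42614588 to 55859274 in control libraries. Control 2 stood apart: its log2 CPM (counts scaled to library size) correlated with the other libraries at r = 0.933 to 0.946, against 0.971 to 0.979 among the others. It had 97702 TPM of Bc1, a short neuronal non-coding RNA, against 24336 to 30079 TPM in overexpression and 29880 and 32645 TPM in the other controls. Some fold changes and list medians are given both with and without control 2. The others can move without it too, and correlations are given over all 6 libraries only.

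Oligodendrocyte precursors persist throughout the adult cortex, divide in response to platelet-derived growth factor through the receptor PDGFRA, and carry the NG2 proteoglycan encoded by Cspg4. The transcription factors OLIG1, OLIG2, SOX10 and NKX2-2 set lineage identity and drive differentiation, GPR17 and ENPP6 mark short-lived committed and newly forming stages, and MYRF switches on myelin genes. Canonical Wnt signalling is known as a regulator of this step, and its forced activation in precursors delays differentiation in mice.

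No gene of the 10 passed the test between overexpression and control, and the 10 did not move as one group. By edgeR's quasi-likelihood test, with p-values adjusted over all tested genes (Benjamini-Hochberg), 0 of 10 had an adjusted p under 0.05, as did 0% of all tested genes. DESeq2 also called 0 of 10, against 0.286% of all genes with an adjusted p, and limma voom 0 of 10. The log2 fold change (overexpression over control) was below 0 for 7 and above 0 for 3, where 49.3% of all tested genes were above 0. The median over the 10 was -0.13, against -0.01 over all tested genes. On the deposited TPM scale the split turned to 3 below 0 and 7 above 0, with a median of 0.11 on log2(TPM + 1), while 65% of all genes lay above 0 there. In TPM of genes with a mean of 0.5 or more, the median over all genes itself was shifted to 0.18. The transcription factor genes Nkx2-2 and Olig1 had the lowest fold changes, -1.02 and -0.87 on the log2 scale, and Myrf had the highest, 0.41. These 2 lower genes were the only members with an unadjusted p under 0.05, and 2.80% of all tested genes were lower with such a p. In bulk tissue, fewer cells of a type and less RNA per cell cannot be told apart.

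**Figure D1:**
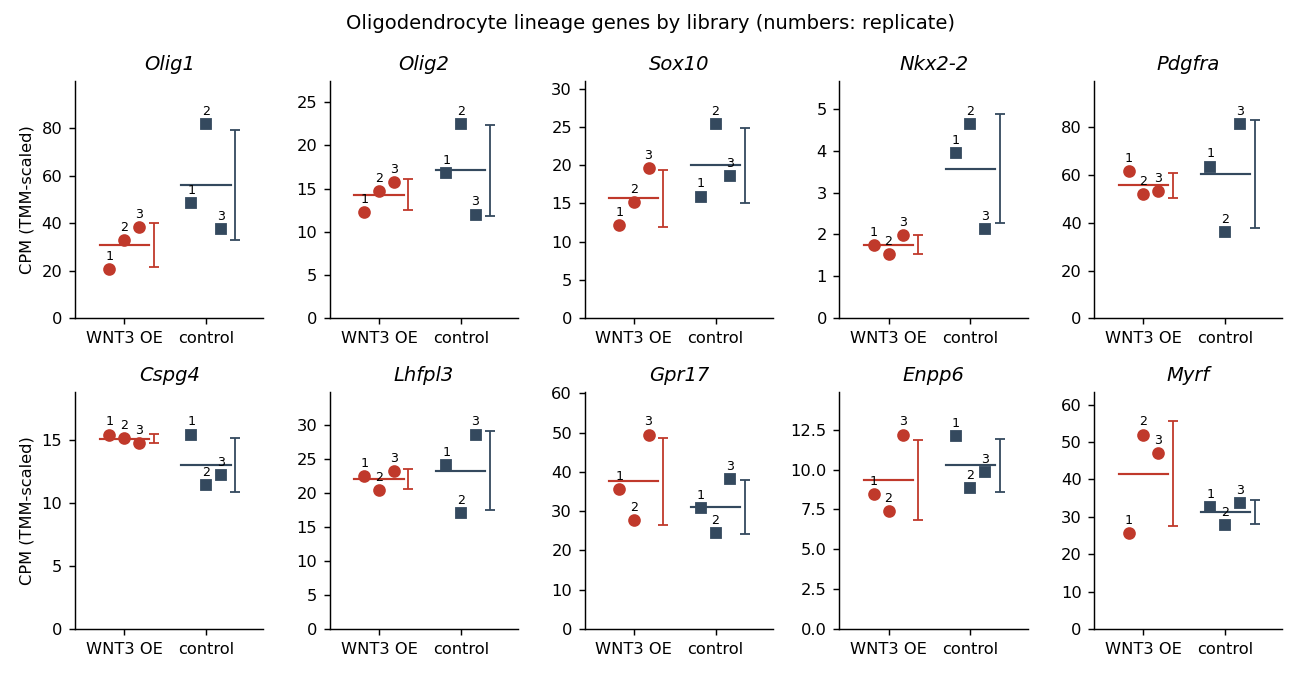
TMM-scaled CPM of each of the 10 genes, with red circles for the 3 WNT3 overexpression libraries, dark squares for the 3 controls, replicate numbers above the points, a line at the mean and a bar of 1 SD beside it. Nkx2-2 is the gene whose groups are apart (1.53 to 1.99 CPM in overexpression, 2.12 to 4.64 CPM in control), and the other panels overlap.

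The transcription factors come first. Nkx2-2 encodes a homeodomain factor that promotes differentiation of precursors and, in mice, represses Pdgfra. It lies on chromosome 2, 147177546 to 147194243 on the minus strand (mm10, GENCODE M21). Nkx2-2 was at 1.75, 1.53 and 1.99 CPM in overexpression libraries 1 to 3, against 3.94, 4.64 and 2.12 CPM in controls 1 to 3. Every overexpression library lay below every control, but overexpression library 3 and control 3 nearly met, from 142 and 107 counts. The means were 1.75 ± 0.23 CPM in overexpression and 3.57 ± 1.30 CPM in control (SD, n = 3 each), a log2 fold change of -1.02 ± 0.36 (SE), with a 95% interval of -1.84 to -0.20. Its adjusted p was 0.822 in edgeR and 0.406 in DESeq2, and the unadjusted edgeR p was 0.0206. Groups that did not overlap and lay lower in overexpression were found in 1 of the 10 genes, against 6.04% of all tested genes; 0 of 10 were apart and higher, against 5.89%. It was the least abundant of the 10, and its lowest count, 95, carries a counting error of 10.3%. The antisense gene Nkx2-2os overlaps it and held 27, 44 and 56 counts in overexpression and 59, 28 and 61 in control. The strand setting of the counting is not known, so reads of the pair could be shared.

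Olig1 encodes a basic helix-loop-helix factor needed in mice for repair of myelin, and lies on chromosome 16, 91269772 to 91271933 on the plus strand. Olig1 was at 20.7, 33.1 and 38.5 CPM in overexpression libraries 1 to 3, against 48.5, 81.8 and 37.7 CPM in controls 1 to 3. Overexpression library 1 was lowest and control 2 highest, and overexpression library 3 lay just above control 3, so the groups overlapped. The means were 30.7 ± 9.15 CPM in overexpression and 56.0 ± 23.0 CPM in control (SD, n = 3 each), a log2 fold change of -0.87 ± 0.33 (SE), 95% interval -1.63 to -0.10. The adjusted p was 0.822 in edgeR and 0.59 in DESeq2, and the unadjusted edgeR p was 0.0313. Without control 2 the log2 fold change was -0.48, with an unadjusted edgeR p of 0.0995. Olig2, its neighbour 41094 bases away and the factor that specifies the lineage, was at 12.3, 14.7 and 15.8 CPM in overexpression and 16.8, 22.5 and 12 CPM in control. Its groups overlapped, since control 3 was the lowest of the 6 libraries, and the log2 fold change was -0.26 ± 0.26 (SE), 95% interval -0.86 to 0.33, or -0.01 without control 2. Olig1 alone of these neighbouring paralogs had an interval that left out 0, and the difference between their fold changes was not tested. Sox10, which encodes an HMG-box factor that acts with OLIG factors and MYRF on myelin genes, was at 12.2, 15.2 and 19.6 CPM in overexpression and 15.9, 25.4 and 18.6 CPM in control. The log2 fold change of Sox10 was -0.35 ± 0.25 (SE), 95% interval -0.93 to 0.24, with groups that overlapped, and it was -0.14 without control 2 and -0.19 without overexpression library 1. For Nkx2-2 it was -0.78 without control 2, with an unadjusted p of 0.0447 (edgeR adjusted p = 0.842).

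Upstream sequence is shown for Nkx2-2 and Olig2, as members of this set of transcription factor genes, and for Pdgfra. Over the 6 libraries, the level of Pdgfra had r = -0.43 with Nkx2-2 and -0.86 with Olig2. Control 2 was the lowest library for Pdgfra and the highest for Nkx2-2 and Olig2, and r without it was not computed. Whether NKX2-2 acted on Pdgfra here was not tested. The bases precede the start of the transcript in the RefSeq table (GRCm38.p6), in the direction of the gene, without annotated exons. Capitals mark the core of the TCF/LEF motif through which canonical Wnt signalling acts, searched as CTTTG and, on the other strand, CAAAG.
Nkx2-2, chr2:147186456-147186652, minus strand: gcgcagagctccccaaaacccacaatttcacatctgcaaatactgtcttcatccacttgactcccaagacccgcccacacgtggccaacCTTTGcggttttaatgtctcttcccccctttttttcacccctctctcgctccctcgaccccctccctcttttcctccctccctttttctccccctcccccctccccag
Olig2, chr16:91225300-91225456, plus strand: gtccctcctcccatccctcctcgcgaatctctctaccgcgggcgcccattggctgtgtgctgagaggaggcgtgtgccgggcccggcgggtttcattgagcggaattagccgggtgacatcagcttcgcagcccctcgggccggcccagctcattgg
Pdgfra, chr5:75152001-75152250, plus strand: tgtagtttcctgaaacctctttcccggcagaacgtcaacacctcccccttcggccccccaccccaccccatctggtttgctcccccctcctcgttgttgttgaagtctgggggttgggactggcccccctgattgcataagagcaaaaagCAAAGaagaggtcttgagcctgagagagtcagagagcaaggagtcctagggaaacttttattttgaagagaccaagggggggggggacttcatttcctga
The Nkx2-2 stretch lies inside the gene, before a start within it, and holds 1 match, the Olig2 stretch holds 0 and the Pdgfra stretch holds 1. RefSeq windows were given for 6 of the 10 genes, and 4 of the 6 held a match in the 250 bases before the start, against 48.6% of 32851 windows of the same length. A match describes these letters and shows no binding.

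The precursor surface genes were close between the groups. Pdgfra, the receptor through which precursors are held in division, lies on chromosome 5, 75152292 to 75198215 on the plus strand. Pdgfra was at 61.6, 52.2 and 53.3 CPM in overexpression libraries 1 to 3, against 63.6, 36.2 and 81.5 CPM in controls 1 to 3. The overexpression libraries lay inside the wider range of the controls. The log2 fold change was -0.12 ± 0.28 (SE), 95% interval -0.76 to 0.53, adjusted p = 0.91 in edgeR. Without control 2, the lowest library, it was -0.38 with an unadjusted p of 0.0285 (adjusted p = 0.797), and without control 3, the highest, it was 0.16. Cspg4, the NG2 proteoglycan gene, was at 15.4, 15.1 and 14.7 CPM in overexpression and 15.4, 11.4 and 12.2 CPM in control, a log2 fold change of 0.21 ± 0.19 (SE), 95% interval -0.23 to 0.66. The 3 overexpression libraries lay close to one another and to control 1. Lhfpl3, which encodes a tetraspan membrane protein and is a marker of precursors, was at 22.5, 20.4 and 23.3 CPM in overexpression and 24.1, 17.1 and 28.6 CPM in control. Its log2 fold change was -0.08 ± 0.22 (SE), 95% interval -0.58 to 0.43. The 3 intervals leave out a change of 2-fold either way.

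Pdgfra is also a gene of meningeal fibroblasts, and Cspg4 one of pericytes. Of 14 markers of meningeal fibroblasts, 13 were above 0 in log2 fold change, with a median of 0.60 that was 0.14 without overexpression library 1 and 0.41 without control 2, and their summed level was 38.09 to 119 CPM in overexpression and 39.96 to 80.74 CPM in control. The defining collagen gene Col1a1 was at 2.20, 1.5 and 0.887 TPM in overexpression and 0.811, 0.601 and 1.28 TPM in control. Of 13 pericyte and smooth muscle markers, 8 were above 0, with a median of 0.04, and summed to 242 to 285 CPM in overexpression and 212 to 234 CPM in control. No fibroblast marker had an unadjusted p under 0.05 in edgeR, and of the pericyte markers 1 did (Tagln, lower). The part of these cells in the levels of Pdgfra and Cspg4 was not tested.

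Genes of committed and differentiating cells had fold changes on both sides of 0. Gpr17, a G protein-coupled receptor switched on for a short time after commitment, was at 35.5, 27.7 and 49.5 CPM in overexpression libraries 1 to 3, against 30.7, 24.5 and 38.1 CPM in controls 1 to 3. Overexpression library 3 was the highest and control 2 the lowest, and the groups overlapped, with a log2 fold change of 0.27 ± 0.26 (SE), 95% interval -0.32 to 0.87. Gpr17 sits within Lims2 on the other strand, which held 256 to 613 counts in overexpression and 257 to 507 in control, below the counts of Gpr17 in each library. Enpp6, a choline phosphodiesterase of newly forming oligodendrocytes, was at 8.49, 7.39 and 12.2 CPM in overexpression and 12.1, 8.86 and 9.83 CPM in control. Enpp6 had a log2 fold change of -0.13 ± 0.26 (SE), 95% interval -0.72 to 0.46. Myrf, a membrane-bound transcription factor that cuts itself free to enter the nucleus, was at 25.7, 52.0 and 47.0 CPM in overexpression and 32.6, 27.7 and 33.8 CPM in control. Overexpression libraries 2 and 3 lay above all controls and library 1 below them, so that the mean was 41.6 ± 14.0 CPM in overexpression and 31.4 ± 3.21 CPM in control (SD, n = 3 each). The log2 fold change of Myrf was 0.41 ± 0.27 (SE), 95% interval -0.21 to 1.02, adjusted p = 0.822 in edgeR. It was 0.66 without overexpression library 1, with an unadjusted p of 0.0145 (adjusted p = 0.98), and 0.22 without overexpression library 2.

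**Figure D2:**
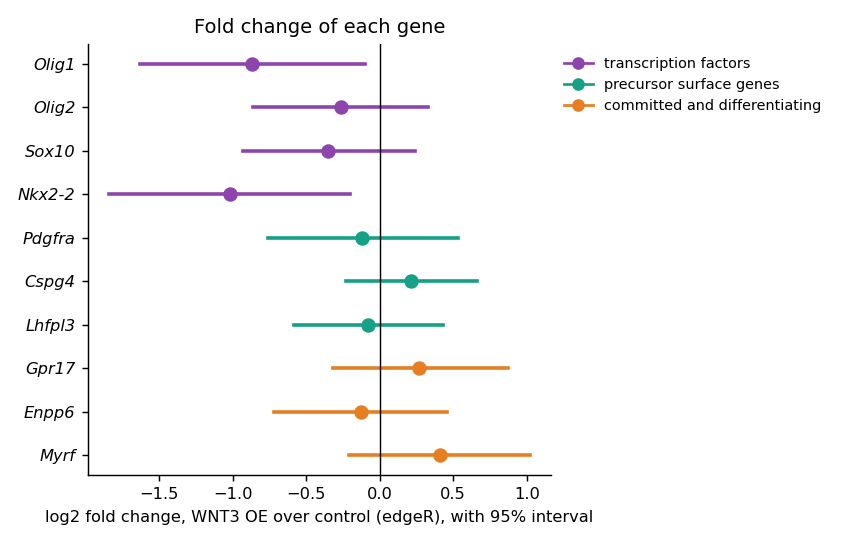
Points give the edgeR log2 fold change of WNT3 overexpression over control for each of the 10 genes, lines the 95% interval, and colours the role of the gene. The intervals of Olig1 (-1.63 to -0.10) and Nkx2-2 (-1.84 to -0.20) leave out 0 before adjustment, and those of the other 8 genes include it.

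Wnt3 itself was at 98.8, 7.45 and 8.71 CPM in overexpression libraries 1 to 3, against 2.70, 1.91 and 1.74 CPM in controls. Its log2 fold change was 4.18 ± 1.02 (SE), with an adjusted p of 0.822 in edgeR, and DESeq2 gave it no p-value. The edgeR test thus did not call the overexpressed gene either, so a gene that did not pass is not shown to be unchanged. Overexpression library 1, with the highest Wnt3, was also the lowest of the 6 libraries for 3 of the 10 genes (Sox10, Olig1 and Myrf) and the highest for 0. Overexpression library 2 was the lowest for Enpp6 and Nkx2-2, and overexpression library 3 for 0. Control 2, with 1.91 CPM of Wnt3, was the lowest for 4 (Pdgfra, Cspg4, Gpr17 and Lhfpl3) and control 3, with 1.74 CPM, for Olig2. With 3 libraries, no relation between Wnt3 and these levels can be tested.

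On the per-length TPM scale, Olig1 was the most abundant of the 10, at 24.4, 37.6 and 42.5 TPM in overexpression and 53.8, 62.4 and 41.5 TPM in control, and it was above the next gene in 6 of 6 libraries. Pdgfra (mean 20.7 TPM over the 6 libraries), Lhfpl3 (17.2), Gpr17 (15.5), Myrf (15.0), Sox10 (14.8) and Olig2 (14.1) followed, and each overlapped its neighbour in this order. Olig2 was above the next gene in 6 of 6 libraries with ranges apart, and Enpp6 (4.57 TPM), Cspg4 (4.08 TPM) and Nkx2-2 (2.67 TPM) formed a lower set whose neighbours overlapped. Within overexpression alone Myrf averaged 18 TPM and Gpr17 17.9 TPM, against 12 TPM for Myrf and 13.2 TPM for Gpr17 in control.

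The 4 transcription factor genes varied together between libraries, as did Pdgfra with Lhfpl3, and the other members ranged widely in their r with these sets. Over the 6 libraries, Pearson's r of log2 CPM was 0.89 between Olig1 and Sox10, 0.88 between Olig1 and Olig2, 0.85 between Olig1 and Nkx2-2, and 0.61 to 0.78 among the other pairs of these 4 factors. Pdgfra and Lhfpl3 had r = 0.96 with each other, and r = -0.86 and -0.76 with Olig2. Cspg4, though a precursor gene, had r = 0.29 with Pdgfra and 0.20 with Lhfpl3, and r = -0.80 with Sox10 and -0.66 with Olig1. Gpr17 had r = 0.66 with Lhfpl3 and 0.52 with Pdgfra. Myrf had r = 0.02 with Enpp6 and 0.27 with Gpr17, and over all members its r ran from -0.50 (Nkx2-2) to 0.33 (Cspg4). Control 2 lay at an end of the range for 8 of the 10 genes, and r without it was not computed. It was the highest of the 6 libraries for all 4 transcription factor genes and the lowest for Pdgfra, Lhfpl3, Gpr17 and Cspg4. Control 2 lay above the mean of controls 1 and 3 by 0.94 (Olig1), 0.68 (Nkx2-2), 0.67 (Olig2) and 0.56 (Sox10) on the log2 CPM scale, and differed from it by -0.99 for Pdgfra and -0.61 for Lhfpl3. Transcripts of the 4 factors were short, at 0.786 to 0.991 of the median relative length, and those of the other 6 genes were at 1.13 to 2.94. With a trend on transcript length removed from each library, the log2 fold change was -0.89 for Nkx2-2 and -0.72 for Olig1, and the unadjusted edgeR p was 0.0183 and 0.0223 (adjusted p = 0.719 and 0.741). The correlations describe 6 libraries that differ in depth and in length profile, and the part of transcript length in them was not tested.

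**Figure D3:**
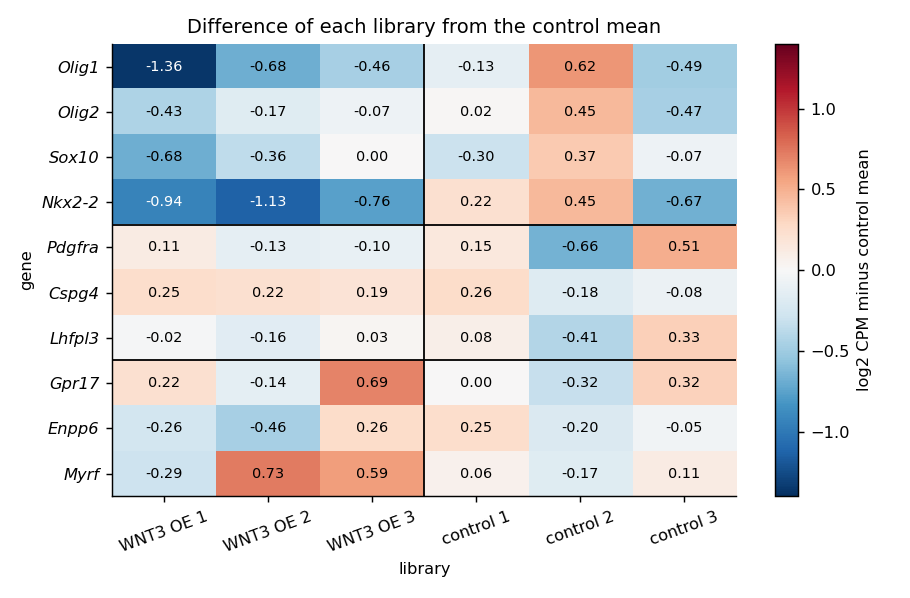
Each cell gives the log2 CPM of a gene in a library minus the mean of the 3 controls, with overexpression libraries on the left, controls on the right, and lines between the 3 roles. The transcription factor rows are 0 or lower in all overexpression libraries and highest in control 2 (0.37 to 0.62), where the precursor rows are lowest (-0.66 to -0.18).

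**Figure D4:**
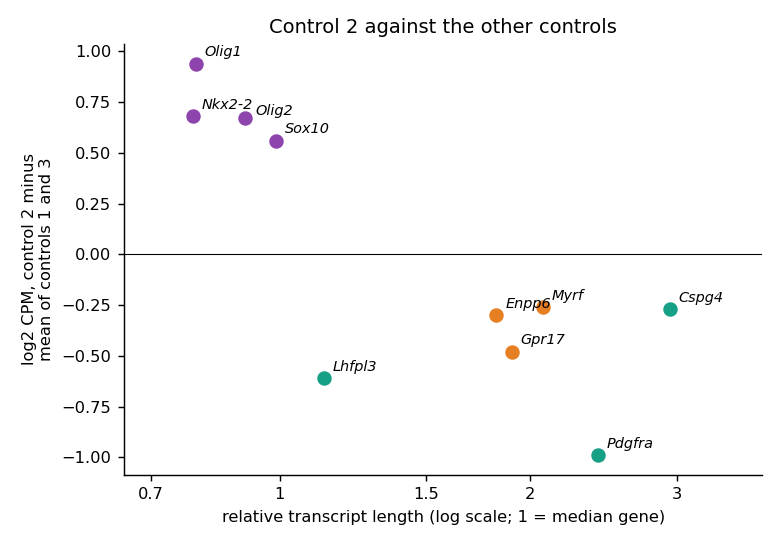
Relative transcript length (log axis, 1 is the median gene) of each of the 10 genes against the log2 CPM of control 2 minus the mean of controls 1 and 3. The 4 transcription factor genes lie at the short end and 0.56 to 0.94 above 0, and the other 6 genes are longer and lie below 0.

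A ratio within a library cancels a change that its genes share in equal measure. It does not cancel RNA from other cell types or a trend on transcript length. The mean log2 CPM of the precursor genes Pdgfra, Cspg4 and Lhfpl3 minus that of Gpr17, Enpp6 and Myrf was 0.48, 0.19 and -0.21 in overexpression libraries 1 to 3 and 0.32, 0.08 and 0.39 in controls 1 to 3. These overlapped, with means of 0.16 ± 0.35 in overexpression and 0.26 ± 0.16 in control (SD, n = 3 each). The mean of the 4 transcription factor genes minus that of Gpr17, Enpp6 and Myrf, a ratio chosen after the values were seen, was -1.20, -1.09 and -1.29 in overexpression and -0.61, 0.25 and -1.01 in control. Here the groups did not overlap, though control 3 lay close to overexpression library 2. The factors have short transcripts (0.786 to 0.991 of the median relative length), and Gpr17, Enpp6 and Myrf longer ones (1.82 to 2.07). The part of transcript length in this ratio was not tested. Against the precursor genes the same factors stood at -1.68, -1.28 and -1.08 in overexpression and -0.93, 0.17 and -1.4 in control, and overlapped.

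Other genes of the lineage did not pass the edgeR test either. Of 20 other genes high in precursors, 9 were above 0 and 11 below, with a median log2 fold change of -0.17, and 2 had an unadjusted p under 0.05 (edgeR adjusted p = 0.822), as had 4.65% of all tested genes. Cspg5, a transmembrane proteoglycan, was at 173, 143 and 183 CPM in overexpression and 198, 361 and 213 CPM in control. Emid1 was at 2.60, 2.83 and 2.58 CPM in overexpression and 4.22, 5.35 and 3.14 CPM in control. These and Matn4, a matrix protein gene, were the 3 of the 20 that were lower in each overexpression library than in any control, where 6.04% of all tested genes were so. All 3 were highest in control 2. Without it the log2 fold change was -0.31 for Cspg5, against -0.63 with it, and -0.46 for Emid1, against -0.67. The unadjusted edgeR p without control 2 was 0.0404 for Cspg5 and 0.0815 for Emid1 (adjusted p = 0.832 and 0.883). Of 16 other genes of committed and newly formed cells, 8 were above 0 and 8 below, with a median of -0.01, and 0 had an unadjusted p under 0.05 in edgeR (DESeq2 called 0). Among them Bmp4, a secreted factor that committed precursors express, was at 2.69, 1.88 and 1.26 CPM in overexpression and 0.892, 1.72 and 1.23 CPM in control, which overlapped.

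Of 22 myelin genes, 18 were below 0, with a median of -0.28, and in single libraries their median log2 CPM relative to the mean control stood at -0.75, -0.36 and 0.11 in overexpression and -0.21, 0.34 and -0.13 in control. Opalin, a myelin membrane protein gene, was the 1 of 22 myelin genes with groups apart, where 6.04% of all tested genes were apart and lower. It was at 13.7, 10.5 and 14.9 CPM in overexpression against 25.6, 45.5 and 23.6 CPM in control. Its log2 fold change was -1.28 ± 0.29 (SE), or -0.91 without control 2. DESeq2 called it (adjusted p = 0.0263) whereas edgeR did not (adjusted p = 0.822). The unadjusted edgeR p was 0.00221 with control 2 and 0.0011 without it (adjusted p = 0.495). Leaving out control 2 gave a myelin median of -0.15, and leaving out overexpression library 1 gave -0.13.

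Of 21 tested regulators of the lineage other than the 10, 14 were above 0 and 7 below (median 0.10), and the 2 with an unadjusted p under 0.05 were lower. Nkx6-2, a homeodomain factor of myelinating cells, was at 1.84, 2.99 and 2.30 CPM in overexpression and 3.59, 7.17 and 2.87 CPM in control, with overlapping groups and a log2 fold change of -0.94 ± 0.40 (SE). Like Nkx2-2, it was highest in control 2, and its adjusted p in edgeR was 0.822. Without control 2 its log2 fold change was -0.44, with an unadjusted edgeR p of 0.159 (adjusted p = 0.927).

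Signals that act on precursors were mixed. Of 6 PDGF ligands and receptors other than Pdgfra, 4 were above 0 (median 0.14). Pdgfa, the ligand gene for PDGFRA, was at 43.7, 40.5 and 53.3 CPM in overexpression and 51.4, 98.1 and 60.7 CPM in control, with overlapping groups. Its log2 fold change was -0.61 ± 0.26 (SE), with an unadjusted edgeR p of 0.0455. Without control 2 it was -0.29, with an unadjusted edgeR p of 0.0909 (adjusted p = 0.89). Of 20 other signals and receptors, 12 were above 0 (median 0.14). Cxcl12, a chemokine gene, was at 51.7, 66.3 and 50.5 CPM in overexpression against 42.2, 33.0 and 33.2 CPM in control, and Igf1r, the receptor for insulin-like growth factor 1, at 123, 112 and 112 CPM against 91.1, 43.5 and 89.2 CPM. Both had groups apart, log2 fold changes of 0.64 ± 0.19 and 0.63 ± 0.28 (SE), and an adjusted p of 0.822 in edgeR. Without control 2 the log2 fold change of Igf1r was 0.36. Its unadjusted edgeR p was 0.0495 with control 2 and 0.00505 without it (adjusted p = 0.637). They were the 2 of the 20 apart and higher, where 5.89% of all tested genes were so. Another 1 of the 20 was apart and lower, against 6.04%. Of 13 tested Wnt pathway genes described in precursors, 10 were above 0 (median 0.12). Over all libraries only Rnf43, an E3 ligase that removes Frizzled receptors, had an unadjusted edgeR p under 0.05 (0.0437). Rnf43 was at 1.44, 1.80 and 1.57 CPM in overexpression and 2.82, 3.25 and 2 CPM in control. Its log2 fold change was -0.74, or -0.58 without control 2 with an unadjusted edgeR p of 0.0698 (adjusted p = 0.866). Lef1, a nuclear effector of Wnt signalling, had a log2 fold change of 0.51 with a 95% interval of -0.10 to 1.12. Without control 2 it was 0.62, with an unadjusted edgeR p of 0.0289 (adjusted p = 0.797). Among Wnt target genes, Axin2 (0.04), Notum (0.12), Apcdd1 (0.10) and Nkd1 (-0.20), picked after their values were seen, had intervals that included 0. Log2 fold changes in this list ran from -0.80 (Wif1, 95% interval -2.32 to 0.71) to 0.65 (Lgr5, -0.26 to 1.56). Without control 2 the log2 fold change was 0.52 for Notum and -0.13 for Axin2. Tcf7l2, a TCF factor present for a short time in newly formed oligodendrocytes, had a log2 fold change of 0.10 over all libraries.

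Of 19 tested cell cycle genes, 5 were above 0 and 14 below (median -0.24), and 2 had an unadjusted p under 0.05, where 4.65% of all tested genes had one. The median was -0.08 with at least 50 counts in 3 libraries, and 0.01 to 0.03 on the TPM scale. Mcm5, a replication licensing gene, was at 3.23, 3.15 and 3.63 CPM in overexpression against 4.95, 5.10 and 4.77 CPM in control. Cdkn1a, the gene of the cell cycle inhibitor p21, was at 12.5, 45.5 and 23.4 CPM in overexpression against 11.7, 13.5 and 15.6 CPM in control. The proliferation marker Mki67 had a log2 fold change of 0.04, or -0.29 without control 2. Neither of the first 2 passed in edgeR (adjusted p = 0.822 each).

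**Figure D5:**
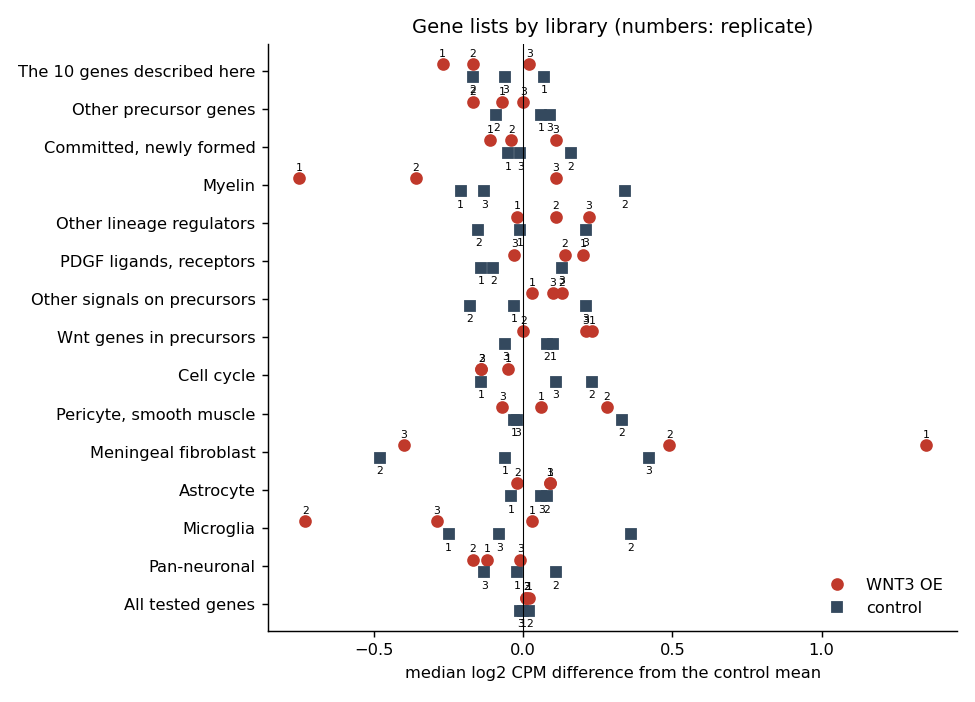
For each gene list shown, the median over its tested genes of log2 CPM minus the mean of the 3 controls. Red circles are the WNT3 overexpression libraries and dark squares the controls, with replicate numbers beside them. The choroid plexus, striatal, cortical and reactive oligodendrocyte lists are not shown. The 10 genes span -0.27 to 0.02 in overexpression and -0.17 to 0.07 in control. Of the lists shown, the meningeal fibroblast list spreads most between libraries (-0.40 to 1.35 in overexpression, -0.48 to 0.42 in control).

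Markers of other cells differed by list in direction. Of 14 astrocyte markers 9 were above 0 (median 0.03), of 12 microglia markers 1 (median -0.34), of 10 pan-neuronal markers 3 (median -0.13) and of 5 tested choroid plexus markers 5 (median 0.50). Of 12 striatal markers 3 were above 0 (median -0.13) and of 10 cortical markers 4 (median -0.04). Without control 2 the astrocyte median was -0.14, the microglia median -0.11 and the striatal median -0.32. By library the microglia median stood at 0.03, -0.73 and -0.29 in overexpression and -0.25, 0.36 and -0.08 in control, again highest in control 2. Of 8 genes reported in reactive oligodendrocytes, 5 were above 0 (median 0.89, or 0.47 without overexpression library 2). Of the 8, 4 were higher with an unadjusted edgeR p under 0.05, where 415 of all 22360 tested genes were so. The groups were apart for 2, where 5.89% of all tested genes were apart and higher. Which cells carried these genes was not tested. Serpina3n, a protease inhibitor gene, was at 14.7 to 34.3 CPM in overexpression and 7.32 to 7.89 CPM in control, a log2 fold change of 1.55 ± 0.32 (SE) that DESeq2 called (adjusted p = 0.00548) and edgeR did not (adjusted p = 0.822). C4b, a complement gene, had a log2 fold change of 1.66, with groups apart, and was called by neither. The astrocyte gene Gfap had one of 0.74 with an unadjusted p of 0.044. The part of cell composition in the fold changes of Nkx2-2 and Olig1 was not tested.

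The genes with the profile most like that of the 10 were sought over the 6 libraries among 16926 other genes with a mean of 1 TPM or more, against the mean standardised log2 CPM of the 10. That mean was -0.49, -0.31 and 0.43 in overexpression libraries 1 to 3 and 0.37, -0.10 and 0.11 in controls 1 to 3. The highest Pearson r belonged to 9330102E08Rik (0.98), Tmem88b (0.967), R3hdm2 (0.96), Cbln2 (0.96) and Tril (0.955). Tmem88b is in the myelin list used here, and was at 33.9, 39.8 and 58.4 CPM in overexpression and 55.8, 48.9 and 49.8 CPM in control. Among the 10 genes Enpp6 followed this mean most closely (r = 0.92). Cspg4 had r = -0.02 and the other 8 had r of 0.17 to 0.45, so the mean follows few of the 10.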

How the data were processed

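Total RNA was extracted with Trizol and made into strand-specific TruSeq libraries, per the labels' protocols. Build mm10 and the programs STAR 2.5.3a, Cuffnorm, DESeq 1.16.1 and FastQC 0.11.5 are named, without their roles, per the submitters' processing notes. The authors deposited whole-number counts per gene, without normalization, and TPM values. Which program counted reads, on which annotation and with which strand option, is not given in the sources used here. Columns were matched to samples by library name.

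Counts were tested with edgeR 4.0.16 in R 4.3.3 (filterByExpr with a minimum count of 10, TMM factors, quasi-likelihood test, a group term alone, leaving 4 residual degrees of freedom, Benjamini-Hochberg adjustment over 22360 genes at 0.05). The SE was taken from the log2 fold change and its F statistic. Log2 CPM used a prior count of 2. A permutation test of 3 against 3 libraries cannot give p under 0.1, so none was run. DESeq2 1.42.0 and limma 3.58.1 were alternatives. Relative length is the ratio of deposited counts to TPM, and its trend was a lowess fit (span 0.3). The edgeR script was tested on simulated data.

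The 10 genes and the lists were chosen with earlier results of these data known. Besides the 10, the rule for naming genes took Wnt3, the 2 genes with the smallest p in each list and the 5 genes most like the 10 in profile; for lists of other cell types mostly counts are given, and some genes the rule took are not reported here. Slc17a7, Drd2, Col1a1, Bc1, Tcf7l2, Mki67, Matn4, Axin2, Notum, Apcdd1, Nkd1, Wif1, Lgr5, Nkx2-2os and Lims2 were added after their values were seen. Deviations of same-numbered libraries from their group means correlated at r = 0.0586, -0.0204 and -0.0103, so the numbers were not taken as pairs.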

Additional observations from a re-analysis of the deposited data

How the results depend on the processing

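No alternative gave a member an adjusted p under 0.05. Over all genes edgeR, limma voom and limma-trend called 0 in every setting run, edgeR also at an adjusted p of 0.1, and DESeq2 called 64. Nkx2-2 stayed below 0 in all 18 alternatives (-1.28 to -0.50), as did Olig1 (-1.08 to -0.47) and Sox10 (-0.54 to -0.11), and Gpr17 (0.02 to 0.48) and Myrf (0.22 to 0.66) stayed above 0. On log2(TPM + 1), log2(TPM + 0.1) and log2(TPM + 1) with a mean TPM of 0.5 or more, the median of the 10 was 0.11, 0.12 and 0.11 with 7 genes above 0 in each, and values above 0 were given by Pdgfra (0.18, 0.20 and 0.18), Olig2 (0.01 each), Enpp6 (0.05, 0.07 and 0.05) and Lhfpl3 (0.16, 0.18 and 0.16). With control 2 left out of the TPM fit, an alternative chosen after seeing the data, the median was -0.14 and Olig2 alone of these was above 0 (0.05) besides the 3 that were so in the counts. Cspg4 was at -0.02 with the length trend removed. With single libraries left out, the number above 0 ran from 3 to 5, and the ranges were -0.38 to 0.16 for Pdgfra, -0.38 to 0.01 for Enpp6 and -0.26 to 0.10 for Lhfpl3. With the replicate number as a block the median was -0.10, and the block lowered the number of genes with an unadjusted p under 0.05 from 1040 to 751. Olig1 and Nkx2-2 both had an unadjusted p under 0.05 in the count fits of all libraries except the block, where Olig1 alone did. Of the 2, Olig1 alone had one without control 1, Nkx2-2 alone without control 2, and neither without overexpression library 1 or without overexpression library 2. Under the alternatives, 39 values of the list medians moved by more than the spread between libraries and 267 did not; of the 39, 7 were for astrocyte markers (-0.14 to 0.30) and 5 were for cell cycle genes (-0.28 to 0.03). The causes of these shifts were not tested. Depth limits Nkx2-2 most, at 95 to 253 counts.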
